A study of Homo sapiens with 12 samples.

Results

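Lysine methyltransferases place methyl groups on histone tails, and the 10 genes described here encode the large enzymes of 3 such systems. KMT2A, KMT2B, KMT2C, KMT2D, SETD1A and SETD1B are the catalytic subunits of the MLL and COMPASS complexes, which methylate histone H3 at lysine K4 at promoters and enhancers. SETD2 and NSD1 methylate H3 at K36, and EHMT1 and EHMT2 (also called GLP and G9a) methylate H3 at K9. Several of these genes are recurrently mutated in tumors, those of the colon among them. The genes were listed by name, with earlier results of these data known, so they are not a list picked blind to the peaks. Their ac4C peaks were the listed peaks whose midpoint lay in the gene span on the strand of the gene. They are 10 of 20037 protein-coding genes with a position in the gene table, 12282 of which had a peak in at least 1 library.

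N4-acetylcytidine (ac4C) is a modified RNA base that NAT10, an RNA acetyltransferase, makes. In acetylated RNA immunoprecipitation sequencing (acRIP-seq), fragmented RNA is pulled down with an antibody against ac4C, and stretches of enriched RNA are reported as peaks. The study compared SW620, a human colorectal cancer cell line, carrying a control shRNA (3 immunoprecipitated libraries, genotype given as WT) with SW620 cells carrying an shRNA against NAT10 (3 immunoprecipitated libraries, genotype given as NAT10 knockdown), to find RNAs whose ac4C depends on NAT10. The shRNAs were delivered by lentivirus into the same line, cells of both groups grew in the same medium, and the sources used here do not state which NAT10 shRNA these libraries carried or whether replicates came from separate cultures, so p-values measure only the spread between these libraries.

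List lengths were 18241, 22619 and 20063 peaks for control and 28752, 17877 and 19047 for knockdown libraries, so knockdown replicate 1 stood apart with the longest list. The lists hold no read counts and the depth is unknown. Each peak has a score, with a lowest value of 50 and a pile-up at 3100, called the ceiling here, that 7.61% to 13.7% of a library's peaks hold exactly and 44 to 126 peaks exceed, so it was used only as a rank. The score percentile is the share of the peaks of the same library with a score at or below that of the peak, and every score of 3100 or more counts as 100. NAT10 itself had 1, 0 and 2 peaks in the controls against 2, 0 and 1 after knockdown, which does not check the knockdown, since peaks are not a measure of RNA level. Of 8 intestinal epithelial markers 6 had a peak and 5 had one in all 6 libraries. VIL1, an actin-bundling protein of the brush border, had the most (33 over the 6 libraries), and the keratins KRT18 and KRT20 had 0 in every library. Of 4 markers of other cell types, PTPRC and PECAM1 had no peak, and COL1A1 and VIM had 6 each. All libraries came from the SW620 line, and peaks in marker genes do not measure how strongly the markers were expressed.

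The peaks of 3 genes reached into the first 50 bases of the gene, for which the reference sequence was at hand, and the first 30 of these bases under the peak are shown because they are the stretch of the gene nearest to the 5' edge of an ac4C peak. The CCG trinucleotide, the context of the known ac4C sites of ribosomal RNA, is in capitals. Sequences are from RefSeq on GRCh38.p14 and run 5' to 3' on the strand of the gene. The KMT2A window is chr11:118436492-118436521 on the plus strand, the KMT2B window chr19:35718019-35718048 on the plus strand, and the KMT2C window chr7:152435974-152436003 on the minus strand.
KMT2A: gcttcacttcacggggcgaacatggcgcac
KMT2B: atggcggcggcggcgggcggcggcagttgc
KMT2C: ggtgcgcgcgcCCGcgCCGatgtgtgtgag
The KMT2C window held 2 CCG and the windows of KMT2A and KMT2B held 0. Motifs were searched on the strand of the gene alone, since the RNA was captured. Of 15843 windows of 30 bases at gene starts 49.6% held CCG, so its presence is common at these positions. The spaced motif CNNCNNCNN, in which every base marked N may be any base, was found 0 times in KMT2A, 3 times in KMT2B and 2 times in KMT2C, overlapping matches included, against 45.0% of the gene-start windows with at least 1 match. The windows were 63.3%, 83.3% and 76.7% C or G in KMT2A, KMT2B and KMT2C, and the median over all windows was 63.3%.

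Peaks were found in 8 of the 10 genes, and each of the 8 had a peak in all 6 libraries. For comparison, 61.3% of the 20037 protein-coding genes had one in any library and 29.8% in all 6. NSD1 (chr5:177131798-177300213, plus strand), the H3K36 dimethyltransferase, and EHMT2 (chr6:31879759-31897698, minus strand), the partner of EHMT1, had 0 peaks in every library. The nearest listed peak of either strand lay 2.80 kb outside the span of NSD1 and 0.087 kb outside that of EHMT2, so the surroundings of both genes were not empty in the lists. The 10 genes together held 38, 46 and 46 peaks in control and 52, 40 and 47 in knockdown libraries. The means were 43.3 ± 4.62 and 46.3 ± 6.03 (SD, n = 3), and the ranges overlapped. The difference, knockdown minus control, was 3 peaks and fell to 0.167 without knockdown replicate 1. Per 10000 peaks of the library the genes held 20.8, 20.3 and 22.9 in control against 18.1, 22.4 and 24.7 in knockdown libraries, again with overlap.

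**Figure D1:**
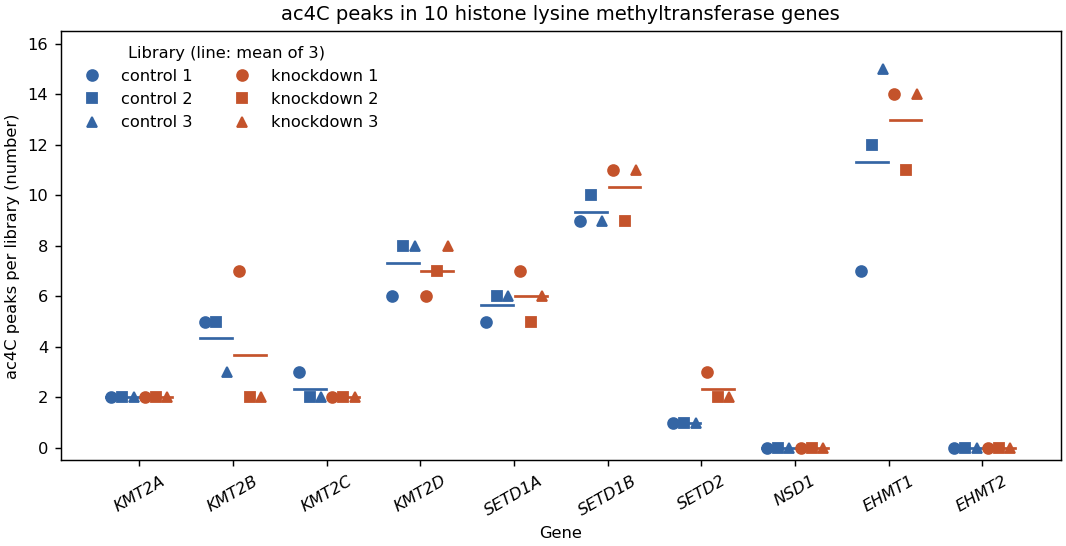
Number of ac4C peaks (vertical axis) in each of the 10 genes (horizontal axis) for every library, with control libraries in blue, knockdown libraries in orange, a marker shape for each replicate number and a line at the mean of 3 libraries. SETD2 is the gene whose groups do not overlap, with 1 peak in each control library and 2 or 3 in the knockdown libraries, and EHMT1 has the highest total, with 7 to 15 peaks per library.

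KMT2A and KMT2B, the MLL enzymes that bind menin and act mainly at promoters, differed from each other in how constant their peaks were. KMT2A (chr11:118436492-118526832, plus strand) had 2 peaks in every library. The first (chr11:118436490-118436944) began 2 bases before the annotated gene start, the second (chr11:118481715-118482092) lay 50.3% along the gene, and both had the same edges in all 6 libraries. The score percentiles of the first were 72.3, 77.4 and 76.2 in control against 83.6, 79.1 and 76.7 in knockdown libraries, and those of the second were 74.8, 57.5 and 60.7 against 82.0, 68.7 and 74.6. The groups overlapped for both peaks, although the means were higher in knockdown libraries (79.8 ± 3.51 against 75.3 ± 2.65 for the first, SD, n = 3).

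KMT2B (chr19:35718003-35738878, plus strand) had 5, 5 and 3 peaks in control and 7, 2 and 2 in knockdown libraries, with means of 4.33 ± 1.15 and 3.67 ± 2.89 (SD, n = 3). The knockdown libraries took both the highest and the lowest values, and the difference of -0.667 peaks lay within the spread (two-sided exact permutation test, p = 0.8). The groups of KMT2B overlapped through knockdown replicate 1 alone, so leaving it out necessarily separated them, with control the higher. Its peaks merged into 8 regions, meaning stretches in which peaks of the same strand overlapped by at least 1 base. Of these, 2 were in all 6 libraries, a region of 2021 bases at 13.4% of the gene (chr19:35719784-35721804), which reached the 3100 ceiling in every library, and a region of 1294 bases at 71.2%. The region at the gene start was listed in control replicates 1 and 2 and knockdown replicate 1, and the region at the gene end in control replicates 1 and 3 and knockdown replicate 1. A region of 280 bases at 24.6% of the gene (chr19:35722995-35723274) was in control replicates 1 and 2 and in no knockdown library, with percentiles of 87.6 and 87.7. Regions of 185 bases at 45.6% and 161 bases at 61.2% were in knockdown replicate 1 alone, with percentiles of 82.4 and 77.7. The region at 36.2% was in control replicate 2 and knockdown replicate 1, with percentiles of 37.4 and 75.9.

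KMT2C and KMT2D encode the MLL enzymes that monomethylate H3K4 at enhancers. KMT2C (chr7:152134925-152436003, minus strand), with the longest span of the 10 at 301 kb, had 3, 2 and 2 peaks in control and 2, 2 and 2 in knockdown libraries. The peak at its start (chr7:152435626-152436005), whose 5' edge lay 2 bases before the gene start, was at the score ceiling in 5 libraries and at percentile 86.4 in knockdown replicate 2. The peak at 25.7% of the gene had percentiles of 40.3, 61.6 and 36.6 in control against 79.4, 60.1 and 63.3 in knockdown libraries. Its means were 46.2 ± 13.5 and 67.6 ± 10.4 (SD, n = 3), and control replicate 2 ranked above knockdown replicate 2, so the groups overlapped. The additional peak of control replicate 1, at 98.4% of the gene, ranked at percentile 7.51.

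KMT2D (chr12:49018978-49060794, minus strand) had 6, 8 and 8 peaks in control and 6, 7 and 8 in knockdown libraries, with means of 7.33 ± 1.15 and 7.0 ± 1.0 (SD, n = 3; two-sided exact permutation test, p = 1). Both groups ran from 6 to 8. Of its 9 regions 5 were in all 6 libraries, and 3 of these were at the ceiling in every library, at 2.63%, 21.9% and 54.4% of the gene. The last region (chr12:49018975-49021872) reached 3 bases beyond the annotated gene end and was 2898 bases wide after merging. It was listed in control replicates 2 and 3 and in knockdown replicate 3. KMT2D had the most bases under peaks of the 10 genes, 7634, 9493 and 10753 in control against 7679, 7816 and 10714 in knockdown libraries, and the low and high values were found in both groups.

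SETD1A and SETD1B are the closely related COMPASS enzymes that make much of the trimethylated H3K4 at active promoters, and both had many constant peaks. SETD1A (chr16:30957754-30984664, plus strand) had 5, 6 and 6 peaks in control and 7, 5 and 6 in knockdown libraries (5.67 ± 0.577 and 6.0 ± 1.0, SD, n = 3; two-sided exact permutation test, p = 1). Of its 7 regions 4 were in all 6 libraries and 2 of these stood at the ceiling in every library. A region of 342 bases at 51.3% of the gene (chr16:30971378-30971719) ranked at percentiles 71.6, 80.9 and 100 in control against 61.6, 64.0 and 50.8 in knockdown libraries, and its edges were identical in all 6. Every control library ranked this region above every knockdown library, with means of 84.2 ± 14.5 and 58.8 ± 7.04 (SD, n = 3). In SETD1A the region in the last 5% of the gene had percentiles of 23.2, 61.3 and 83.9 in control, 83.4 and 85.9 in knockdown replicates 1 and 3, and no peak in knockdown replicate 2.

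SETD1B (chr12:121790155-121832656) had 9, 10 and 9 peaks in control and 11, 9 and 11 in knockdown libraries, with means of 9.33 ± 0.577 and 10.3 ± 1.15 (SD, n = 3; two-sided exact permutation test, p = 0.4). Knockdown replicate 2 shared the value 9 with the controls, and the groups overlapped through this library alone. Their separation without it was therefore fixed by the choice of the library removed. SETD1B was absent from the promoter table, and it was placed on the plus strand because most peaks in its span lay there. The span also held 1 or 2 minus-strand peaks per library, and the minus-strand gene RHOF overlaps it. Whether these peaks lay in RHOF was not examined. The 11 regions of SETD1B began at 34.5% of the gene, 7 were in all 6 libraries, and 10 had the same edges wherever they were listed. A region of 188 bases at 34.5% (chr12:121804724-121804911) was listed in knockdown replicates 1 and 3 and in no control library, with percentiles of 85.7 in both. The distance from the first to the last peak midpoint was 51.8%, 59.4% and 59.7% of the gene in control and 61.3%, 59.7% and 62.3% in knockdown libraries. These shares did not overlap, but control replicate 3 and knockdown replicate 2 differed by less than the rounding printed here.

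**Figure D2:**
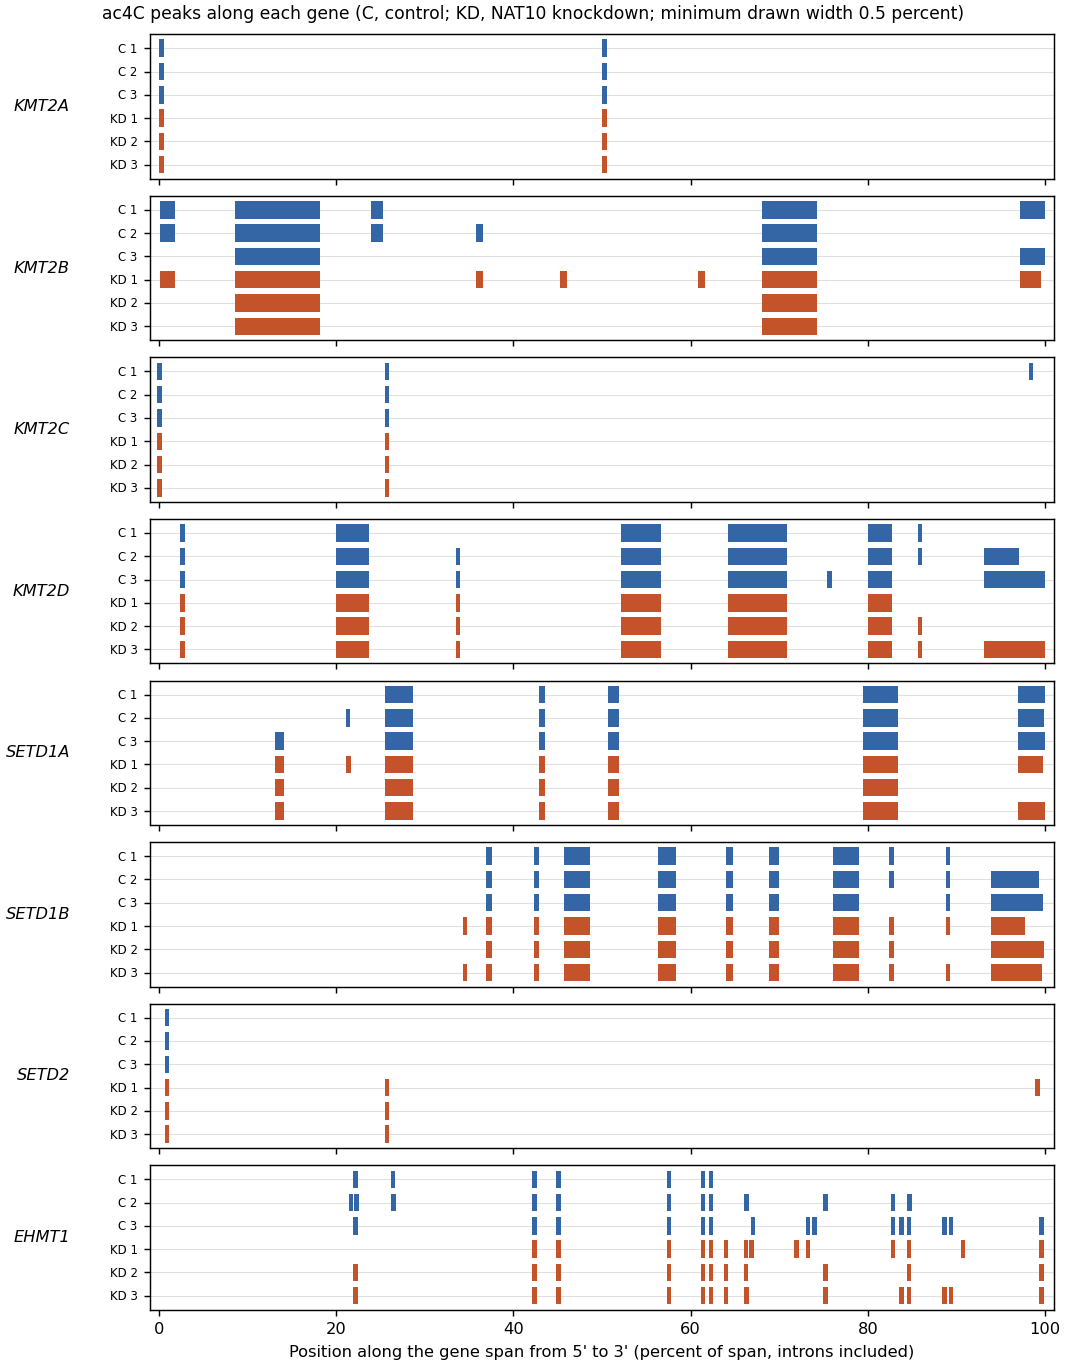
Position of every ac4C peak along the 8 genes with peaks, from the 5' end (0) to the 3' end (100) in percent of the gene span with introns included, in a line per library (C, control, blue; KD, knockdown, orange). Bars are drawn to scale with a minimum width of 0.5 percent; KMT2A repeats the same 2 peaks in all 6 libraries, SETD2 has a bar at 25.7 percent in the knockdown libraries, and the scattered bars of EHMT1 lie mostly beyond 60 percent of the gene.

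SETD2 (chr3:47016436-47164840, minus strand), the enzyme that trimethylates H3K36 in transcribed gene bodies, had 1 peak in each control library and 3, 2 and 2 peaks in the knockdown libraries. The means were 1.0 ± 0.0 and 2.33 ± 0.577 (SD, n = 3), and every knockdown library held more peaks than every control library. The difference of 1.33 peaks had p = 0.1 in the two-sided exact permutation test, the smallest p that 3 against 3 libraries allow, and an adjusted p of 1 over 12282 genes. Values that do not overlap between the groups are called separated here. SETD2 was 1 of 8 genes with peaks to separate with knockdown higher, and 0 separated with control higher. Among all genes with a peak, 1.57% separated with knockdown higher and 0.651% with control higher, and among the 5966 genes with a peak in all 6 libraries the shares were 2.15% and 0.503%. Without knockdown replicate 1 the difference was 1 peak and the groups of SETD2 still did not overlap, whereas on keeping the higher-scored 50% of each list the difference was 0.333 and they did.

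The additional peaks of SETD2 were short. The region in all 6 libraries lay at 0.902% of the gene (chr3:47163428-47163576) and had percentiles of 78.0, 80.7 and 74.6 in control against 100, 84.6 and 80.1 in knockdown libraries, where control replicate 2 overlapped knockdown replicate 3. The region found in every knockdown library and in no control library was 16 bases wide (chr3:47126648-47126663, 25.7% of the gene). Its edges were the same in the 3 libraries and its percentiles were 74.3, 22.5 and 19.7, so 2 of the 3 peaks ranked in the lower part of their lists. The peak that knockdown replicate 1 alone listed was 49 bases wide and lay at 99.1% of the gene, with a percentile of 19.9. The bases under peaks in SETD2 were 149, 143 and 149 in control against 214, 165 and 165 in knockdown libraries. These separated with knockdown higher, as they did in 5.08% of the genes with a peak in all 6 libraries (2.03% with control higher), and no other of the 8 genes separated by this measure. The distance between first and last peak separated in SETD1B and SETD2, both with knockdown higher, against 3.29% of genes with knockdown higher and 1.84% with control higher. The separation of SETD1B was lost when peaks of either strand were counted, and that of SETD2 when only the higher-scored 50% of each list was kept. In SETD2 the distance was 0 in the control libraries, since each had a single peak. In the knockdown libraries it was 98.2%, 24.8% and 24.8% of the gene. Both measures of SETD2 follow from the additional peaks already counted and are not separate results. The shares for distance include genes with a single peak in every library, whose distance is 0 throughout and cannot separate.

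EHMT1 (chr9:137619005-137836127, plus strand), which makes mono- and dimethylated H3K9 in euchromatin, had the most peaks of the 10 genes. It held 7, 12 and 15 peaks in control and 14, 11 and 14 in knockdown libraries, with means of 11.3 ± 4.04 and 13.0 ± 1.73 (SD, n = 3). The control libraries spanned the whole range, and the difference of 1.67 peaks lay within it (two-sided exact permutation test, p = 0.7). Without control replicate 1 the difference was -0.5. The 73 peaks fell into 23 regions, the first of them centered at 21.6% of the gene. Of these regions 5 were in all 6 libraries, all between 42.4% and 62.3% of the gene, 5 were in 1 library and 13 in 2 to 5.

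The percentiles of the 5 constant regions of EHMT1 ran from 32.9 to 85.9 in control and from 35.2 to 100 in knockdown libraries. The other 18 regions ran from 0.531 to 100 in control and from 4.29 to 83.9 in knockdown libraries. The value of 100 came from the region at 22.3% of the gene, listed in control replicate 2 alone. A region of 132 bases at 64.0% of the gene (chr9:137757880-137758011) was listed in the 3 knockdown libraries and in no control library, at percentiles of 4.29, 37.6 and 36.5. With lists of equal length this region of EHMT1 was no longer specific to the knockdown libraries while that of SETD2 was, and with the higher-scored 50% of each list neither was. The region at 26.4% (chr9:137676103-137676508) was listed in control replicates 1 and 2 alone, at percentiles of 5.20 and 0.531. The region at 84.7% (chr9:137802409-137803195) was listed in 5 libraries and ranked at 67.8 and 75.5 in control and at 46.0, 38.7 and 26.9 in knockdown libraries.

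**Figure D3:**
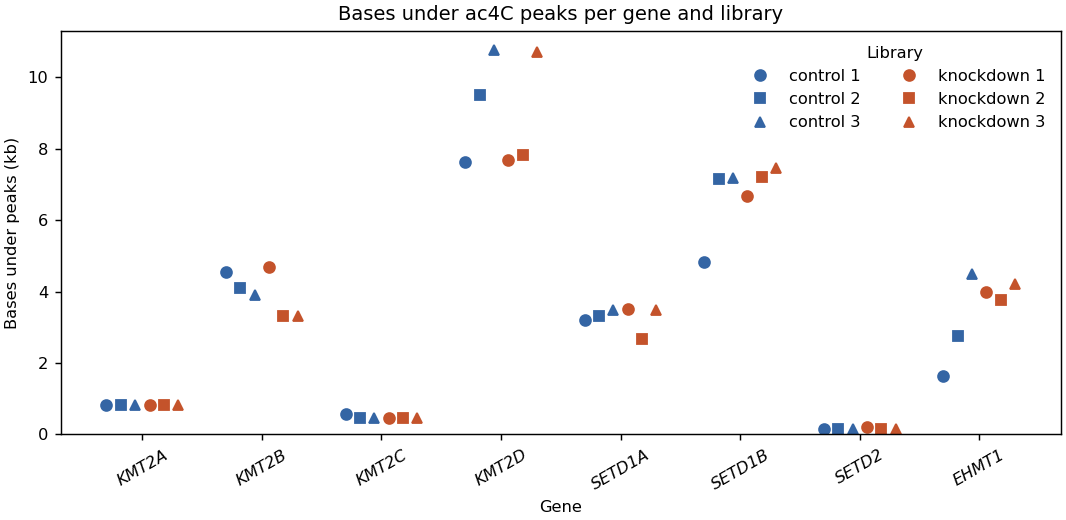
Bases under ac4C peaks in kb (vertical axis) for each of the 8 genes with peaks and each library, with control libraries in blue, knockdown libraries in orange and a marker shape for each replicate number. KMT2D covers the most bases, 7.63 to 10.8 kb, KMT2A the same 833 bases in every library, and SETD2 the fewest, 143 to 214 bases.

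The 8 genes merged into 66 regions, of 41755 in all. Of the 66, 28 (42.4%) were in all 6 libraries and 10 (15.2%) in a single library, against 22% (9195) and 38.7% (16141) of all regions. Among the 56 regions in 2 or more libraries, 43 (76.8%) had the same start and end in every library that listed them, against 60.6% of all such regions. At least 1 library put 21 of the 66 regions (31.8%) at the score ceiling, against 11.7% of all regions. The median width was 188.5 bases and that of all regions 180. These shares were not tested. Of the 66 regions 2 were in every knockdown and no control library, those of SETD2 and EHMT1 above, and 0 were in every control and no knockdown library. The shares over all regions were 0.819% and 0.34%. These shares include regions that could not be called, since such a region lies in exactly 3 libraries. Of the 66 regions 7 were in 3 libraries, and 3839 of all regions were. In exactly 2 libraries were 10 of the 66 regions and 5757 of all regions. The share of all regions in 2 libraries of 1 group alone, as described in KMT2B, SETD1B and EHMT1, was not computed. Those regions therefore have no general rate beside them. Among all regions 342 were in every knockdown and no control library, and 142 the reverse.

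Score ranks gave few separations. The highest-ranked peak of a gene was at percentile 100 in all 6 libraries for KMT2B, KMT2D, SETD1A and SETD1B, so these genes could only tie. In the other genes with peaks the groups overlapped. Among all genes with a peak in all 6 libraries, those at the ceiling included, 4.86% separated with knockdown higher and 3.07% with control higher. Of the 28 regions in all 6 libraries 8 were at the ceiling throughout, 1 in KMT2B, 3 in KMT2D, 2 in SETD1A and 2 in SETD1B, where the ceiling hides any difference. Of the 28 regions 1 separated with control higher, the SETD1A region at 51.3% of the gene, and 0 separated with knockdown higher. Over all regions in all 6 libraries, those at the ceiling included, 3.24% separated with control higher and 6.97% with knockdown higher, so 1 of 28 was near the share over all regions.

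**Figure D4:**
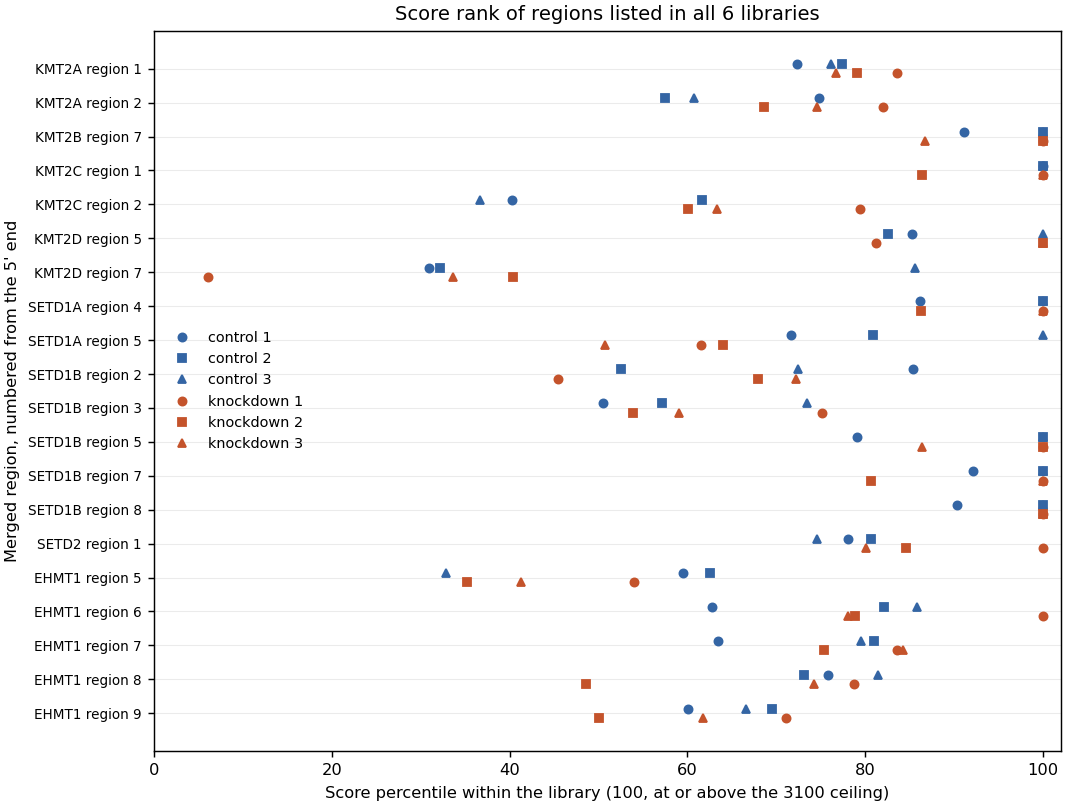
Score percentile within the library (horizontal axis; 100 marks scores at or above the 3100 ceiling) of the 20 regions listed in all 6 libraries and not at the ceiling in each of them (vertical axis, numbered from the 5' end of the gene), with control libraries in blue, knockdown libraries in orange and a marker shape for each replicate number. In region 5 of SETD1A the control libraries lie at 71.6 or more and the knockdown libraries at 64.0 or less, and in the other regions the colors overlap.

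The genes differed in where along their length the peaks lay and in how densely. A region was centered in the first 5% of the span in KMT2A, KMT2B, KMT2C, KMT2D and SETD2, and in the last 5% in every gene with peaks but KMT2A. In KMT2C and SETD2 the region in the last 5% was listed in 1 library each. Its percentile was 7.51 in control replicate 1 for KMT2C and 19.9 in knockdown replicate 1 for SETD2. Regions ended within 5 bases of the annotated gene end in KMT2B, KMT2D and SETD1A. Per 10 kb of span, introns included, the mean number of peaks in control libraries was highest in SETD1B (2.20), SETD1A (2.11), KMT2B (2.08) and KMT2D (1.75), lower in EHMT1 (0.522) and KMT2A (0.221), and lowest in KMT2C (0.0775) and SETD2 (0.0674). In knockdown libraries the values were 2.43, 2.23, 1.76, 1.67, 0.599, 0.221, 0.0664 and 0.157 in the same order of genes. Whether a region is exonic or intronic was not analysed here.

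By number of peaks over the 6 libraries, EHMT1 (73), SETD1B (59), KMT2D (43) and SETD1A (35) were at or above 99.5%, 99.0%, 97.7% and 96.0% of the genes with a peak, and SETD2 (10) at or above 67.8%. The genes whose 6 peak numbers were nearest to those of EHMT1 by Euclidean distance were RIMBP2 (distance 4), DLG5 (4.36) and RAPGEF1 (4.36). RIMBP2 had 10, 12 and 13 peaks in control and 15, 10 and 13 in knockdown libraries.

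Among 19 other lysine methyltransferase genes, 18 had a peak, 8 had one in all 6 libraries, and 1 separated. It was PRDM2, a zinc finger protein of the PRDM methyltransferase family, with 2, 2 and 2 peaks in control and 8, 4 and 3 after knockdown (two-sided exact permutation test, p = 0.1, adjusted p = 1). DOT1L, the H3K79 methyltransferase, had the most peaks of this list, 9, 10 and 9 in control against 17, 12 and 10 in knockdown libraries, which overlapped at 10. Of 13 further subunits of the COMPASS and MLL complexes 12 had a peak and 10 had one in all 6 libraries. NCOA6, the coactivator subunit of the KMT2C and KMT2D complexes, led with 6, 8 and 6 in control against 5, 6 and 6 in knockdown libraries. Of 17 lysine demethylase genes, which encode the opposing enzymes, 16 had a peak and 13 had one in all 6 libraries, with KDM4B the highest at 12, 11 and 17 in control against 15, 15 and 15 in knockdown libraries. Of 9 genes of PRC2, the complex that methylates H3K27, 8 had a peak and 7 had one in all 6 libraries, and JARID2 led with 5, 4 and 6 against 9, 4 and 6. In the complex subunits, the demethylases and PRC2, 0 genes separated in either direction. Over all 12282 genes the exact permutation test with Benjamini-Hochberg adjustment gave 0 genes with an adjusted p under 0.05, 0 with an unadjusted p under 0.05, and 273 at the smallest possible p of 0.1.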

How the data were processed

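The authors deposited 1 list of mRNA peaks per immunoprecipitated library, with a position, a strand, a name in the style of MACS and a score in their own unit. GRCh38 is named in the submitters' processing notes, and the aligner, the caller settings and the origin of the score are not given in the sources used here. The ceiling of the score hides differences among the strongest peaks. The 6 input samples were not analysed here.

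A peak was assigned to a gene when its midpoint lay in the RefSeq GRCh38.p14 span on the strand of the gene. Strand came from the promoter table for 15843 genes and from most peaks in the span for 2384, and 1810 genes had none. All 58 genes of the 4 comparison lists matched. Same-strand peaks that shared 1 base or more were joined into regions. A gene or region separated when the values of the groups did not overlap, and a region present in all 3 libraries of a group and none of the other was called group-specific. Peak numbers were tested with two-sided exact permutation tests over the 6 libraries, with Benjamini-Hochberg adjustment over all genes. The genes named were the 10 members, list genes that separated, the gene with the most peaks per list, and the 3 genes nearest to EHMT1. Also named were NAT10 as the targeted gene, the markers of other cell types, the epithelial markers without a peak, and RHOF, which overlaps SETD1B. Members and lists were chosen with earlier results of these data known. The code was tested on simulated data. Alternatives were another score threshold, equal lists, strand, overlap, single-gene peaks, scaling, the replicate block, coverage, the definition of a call and each library left out. The region percentiles were added after the data were seen. Python 3.11.15, numpy 2.4.6, pandas 2.3.3, scipy 1.17.1 and matplotlib 3.10.9 were used.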

Additional observations from a re-analysis of the deposited data

How the results depend on the processing

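Peak lists without counts give no depth, the score ceiling removes order among the strongest peaks, and 3 libraries per group cannot give p under 0.1.

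The number of genes with a higher mean in knockdown libraries was 4 and ran from 2 to 5 with each library left out. The mean difference of SETD2 was positive in all 13 alternatives, from 0.333 to 1.5 peaks, per 10000 peaks included, and that of SETD1B was positive in all 13. The replicate block, 1 of the 13, cannot change a difference. Any overlap and single-gene peaks left the main values of 1.33 (SETD2) and 1 (SETD1B) unchanged, so not all 13 were separate checks. On keeping the higher-scored 50% of each list, the separated genes fell from 1 to 0, the group-specific regions from 2 to 0 and the genes with a separated spread from 2 to 1 (SETD1B). The differences of KMT2C, SETD1A and EHMT1 became 0.667, -0.333 and -0.333. With equal lists SETD1A was at -0.333 and 1 region stayed group-specific, that of SETD2. Per 10000 peaks SETD1A was at -0.000896. With either strand, 1 gene kept a separated spread, SETD2. With each library left out, separated genes ranged from 1 to 2, group-specific regions from 2 to 6, the summed difference from 0.167 to 6.17, genes with a separated highest percentile from 0 to 2, genes with a separated spread from 2 to 3, and regions with a separated percentile from 1 to 5. Leaving out control replicate 3 gave the 6 regions, 4 of knockdown and 2 of control. Groups separate more easily with fewer libraries. The shares over all genes and regions were not computed with a library left out, so these counts cannot be set against a general rate. Leaving out control replicate 2 or knockdown replicate 3 separated the highest percentile of KMT2A and SETD2, and leaving out knockdown replicate 1 that of EHMT1. The differences ranged from -2.33 to 0.167 in KMT2B, -1 to 0.167 in KMT2D, -0.167 to 0.833 in SETD1A and -0.5 to 3.5 in EHMT1. The cause was not tested.

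The replicate numbers did not pair the libraries (correlations of deviations from the group means 0.0295, 0.00234 and 0.0318 over regions). The replicate block leaves a difference as it is and changes only its p. For the 1.33 peaks of SETD2 the exact sign-flip permutation gave p = 0.25, the smallest that 3 pairs allow.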
